A study of Homo sapiens with 6 samples.

Results

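The 4 enzymes that carry cholesterol synthesis from the last isoprenoid to the first demethylated sterol were examined in H460 cells with and without fluoxetine. They are squalene synthase (FDFT1), squalene epoxidase (SQLE), lanosterol synthase (LSS) and lanosterol 14-alpha-demethylase (CYP51A1). They were picked by gene symbol, with earlier results of these data known. Each had exactly 1 row among the 31762 genes of the deposited count table. All 4 were among the 15646 genes with enough counts to be tested. H460 is an established human cell line from a large cell lung carcinoma, labelled wild type, and every library came from this line. Cells were plated and left for 24 h in serum-containing RPMI medium. The treated cells then received 20 µM fluoxetine, a serotonin reuptake inhibitor used as an antidepressant, for 24 h. The other group is labelled control, and whether it received a vehicle is not stated in the sources used here. Total RNA was sequenced in 3 libraries per group. The comparison asks how the transcriptome of treated cells differs from that of control cells.

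These enzymes stand at the point where the isoprenoid pathway commits to sterols. FDFT1 joins a pair of farnesyl diphosphate molecules head to head to give squalene, SQLE adds oxygen to squalene to form an epoxide, LSS folds the epoxide into the ring system of lanosterol, and CYP51A1, a cytochrome P450, removes a methyl group from lanosterol. SQLE is known as a flow-controlling step of the pathway, and CYP51A1 is the human relative of the fungal enzyme that azole drugs inhibit. Genes of this pathway are classical targets of SREBP2, a transcription factor that leaves the endoplasmic reticulum when its membranes run low in cholesterol.

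The depth was 16157507 to 17113538 counts in the fluoxetine libraries and 19343565 to 27823667 in the control libraries, so each treated library was the shallower. Levels are given in CPM, the counts of a gene scaled to a common library size with TMM normalization (edgeR's cpm), and 3 counts, the limit that a count of 0 allows for counting error, were worth 0.108 to 0.182 CPM. KRT8, KRT18 and KRT19, keratins of epithelial cells, were abundant, at 312 to 1844 CPM on average per group. EPCAM and CDH1, which also mark epithelia, averaged at most 0.414 CPM in a group, and the 3 lung lineage markers listed in the table (NKX2-1, SFTPC and NAPSA) at most 0.279 CPM. The summed level of the 5 epithelial markers lay between 3057 and 4027 CPM in control libraries and between 2689 and 3264 CPM in fluoxetine libraries. KRT18 fell by 0.72 on the log2 scale with fluoxetine (edgeR, adjusted p = 0.00162). The 5 blood, stromal and endothelial markers in the table summed to 3.35 to 5.52 CPM, nearly all of it COL1A1. The part of these shifts in what follows was not tested. In bulk RNA, fewer cells that express a gene and less of its RNA per cell cannot be told apart.

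Fluoxetine-treated cells held more transcript of FDFT1, SQLE and LSS than control cells, by 2.28-fold, 2.68-fold and 3.50-fold (n = 3 libraries per group). CYP51A1 was 1.78-fold higher on average and did not pass the test. Thus 3 of the 4 enzymes were upregulated at an adjusted p under 0.05 from edgeR's quasi-likelihood test, against 7.76% of all tested genes, and the same 3 passed a fold change of at least 2, against 1.25% of all tested genes. In all 4 enzymes the fluoxetine libraries all lay above the control libraries, as they did in 17.5% of the tested genes. The median log2 fold change was 1.31 over the 4 enzymes and 0.03 over all tested genes. Because the enzymes were chosen with earlier results of these data known, these comparisons with all tested genes do not test the group.

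**Figure D1:**
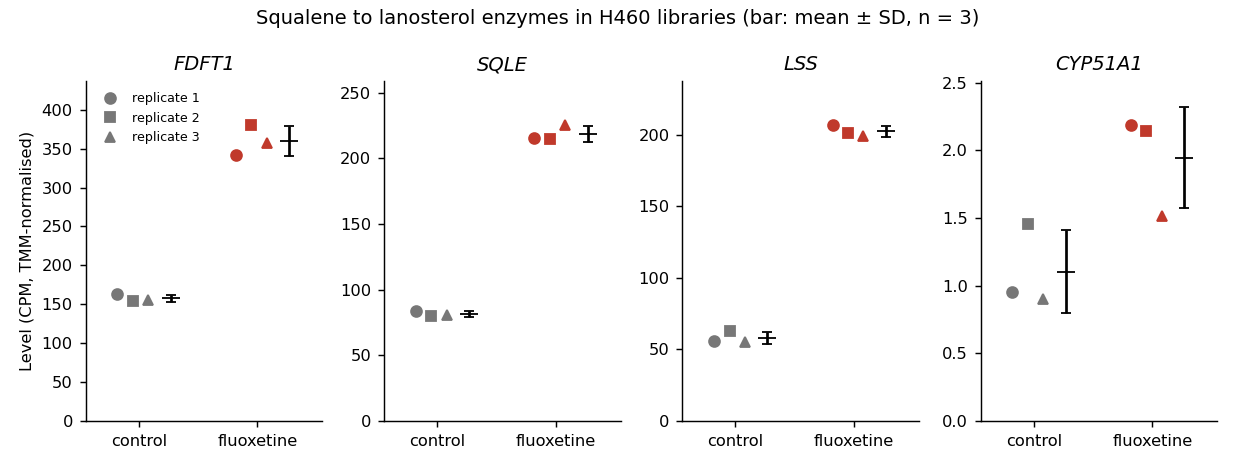
Level of each enzyme in CPM (y axis, from 0, with its own scale per gene) in the 3 control and the 3 fluoxetine libraries. Points are libraries, shaped by replicate number, and the bars beside them give the mean and SD. FDFT1, SQLE and LSS form widely separated groups, while the lowest fluoxetine library of CYP51A1 (1.51 CPM) sits just above the highest control library (1.46 CPM).

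FDFT1 (ENSG00000079459) lies on chromosome 8 from 11795573 to 11839309 on the plus strand of the GRCh38 build. Values per library are given here and below in the order of replicates 1, 2 and 3. FDFT1 had counts of 3592, 2957 and 4307 without fluoxetine and of 5624, 6387 and 6139 with it. In CPM the control libraries had 162.9, 154.1 and 155.2, and the fluoxetine libraries 341.5, 379.9 and 357.5. The groups did not overlap, and a gap of 178.5 CPM separated the lowest treated library from the highest control library. The group means were 157.4 ± 4.83 and 359.6 ± 19.3 CPM (SD, n = 3 each). On the log2 scale FDFT1 rose by 1.19 with a standard error of 0.07 and a 95% interval of 1.04 to 1.35 (edgeR, adjusted p = 4.95e-06).

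SQLE (ENSG00000104549), also on chromosome 8, spans 124998497 to 125022283 on the plus strand, and no other annotated gene shares its exons. Untreated cells gave counts of 1844, 1532 and 2246, and treated cells of 3557, 3610 and 3868. This corresponds to 83.6, 79.8 and 80.9 CPM in the control libraries and to 216.0, 214.7 and 225.2 CPM in the fluoxetine libraries. The groups were far apart. Replicates of SQLE were close to each other, with a coefficient of variation of 2.42% in control cells and 2.63% in treated cells. For the 3702 tested genes in a range of control levels that includes FDFT1, SQLE and LSS the median was 7.30% and 5.85%. The group means of SQLE were 81.5 ± 1.97 and 218.6 ± 5.74 CPM (SD, n = 3 each). SQLE rose by 1.42 on the log2 scale, with a standard error of 0.07 and a 95% interval of 1.27 to 1.57 (edgeR, adjusted p = 1.04e-06).

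LSS (ENSG00000160285) is a minus-strand gene of chromosome 21 (46188141 to 46228824). It had the largest fold change of the 4 enzymes. Counts of 1233, 1210 and 1522 without the drug stood against 3402, 3387 and 3422 with it, so the treated libraries held more LSS reads although they were the shallower. The control libraries had 55.9, 63.0 and 54.8 CPM, with replicate 2 the highest, and the fluoxetine libraries 206.6, 201.5 and 199.3 CPM. The lowest treated library was 3.16 times the highest control library. The group means were 57.9 ± 4.46 and 202.4 ± 3.74 CPM (SD, n = 3 each). This is a rise of 1.81 on the log2 scale, with a standard error of 0.08 and a 95% interval of 1.63 to 1.98 (edgeR, adjusted p = 6.59e-07). By fold change LSS ranked 39th among the 8479 tested genes that were higher with fluoxetine, SQLE 87th and FDFT1 151st. An antisense gene within LSS, AP001469.1, was counted 5, 2 and 10 times in the control libraries and 27, 21 and 22 times in the fluoxetine libraries. It shares 122 of the 7238 exon bases of LSS, and rose by 2.48 on the log2 scale with a standard error of 0.40 (edgeR, adjusted p = 0.00363). Strand use in the counting is not given in the sources used here. Without strand, reads of LSS and of its antisense gene cannot be told apart where the genes overlap.

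Promoter sequences from RefSeq (GRCh38.p14) were at hand for only 2 of the 4 enzymes, LSS and CYP51A1, and both are shown. The 250 bases before each annotated start were searched on both strands for CACNCCAC (the core of a sterol response element), CCAAT (the box bound by NF-Y), GGGCGG (the box bound by Sp1) and CACGTG (an E-box). NF-Y and Sp1 are general factors that commonly act beside SREBPs. Each stretch below is written 5′ to 3′ on the gene's own strand, holds the longest part of the window outside annotated exons, and has the matches to CCAAT and GGGCGG on either strand in capitals. The LSS stretch is chr21:46228825-46229024 (minus strand, 250 to 51 bases before the start) and the CYP51A1 stretch is chr7:92134531-92134603 (minus strand, 126 to 54 bases before the start). The RefSeq start of CYP51A1 lies downstream of the start in GENCODE release 29, from which the map of this gene is drawn, so this stretch lies inside the gene in that annotation, between exons.
LSS: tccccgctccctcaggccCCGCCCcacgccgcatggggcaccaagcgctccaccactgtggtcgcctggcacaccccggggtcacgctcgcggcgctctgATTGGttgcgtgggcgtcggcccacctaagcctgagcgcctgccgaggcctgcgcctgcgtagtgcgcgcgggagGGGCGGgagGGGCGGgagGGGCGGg
CYP51A1: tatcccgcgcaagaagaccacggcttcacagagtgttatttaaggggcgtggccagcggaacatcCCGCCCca
In its whole window LSS held 6 matches to GGGCGG and 1 to CCAAT, and CYP51A1 held 1 match to GGGCGG and 0 to CCAAT. Of the 35116 promoters of the same length, 42.6% held GGGCGG and 11240 promoters held CCAAT. The letters CACNCCAC, present in 4.87% of those promoters, and CACGTG, present in 6.34%, were found in neither window. The window of LSS was richer in G and C (76.8%) than that of CYP51A1 (63.6%), and the median over all promoters was 58.0%.

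CYP51A1 (ENSG00000001630) is a minus-strand gene listed at 92112151 to 92142952 of chromosome 7. Few reads were assigned to it, 21, 28 and 25 without fluoxetine and 36, 36 and 26 with it. Counting error alone amounts to 16.7% to 21.8% of such counts, against 1.25% to 2.87% for the other 3 enzymes. The control libraries had 0.952, 1.46 and 0.901 CPM and the fluoxetine libraries 2.19, 2.14 and 1.51 CPM. Control replicate 2 and fluoxetine replicate 3 nearly met, with a gap of 0.055 CPM. The group means were 1.10 ± 0.308 and 1.95 ± 0.376 CPM (SD, n = 3 each). The log2 fold change of 0.84 (standard error 0.29, 95% interval 0.20 to 1.48) had an unadjusted p of 0.0154 and an adjusted p of 0.0846 from edgeR, so CYP51A1 did not pass the test. Its interval overlaps those of FDFT1 and SQLE and lies below that of LSS.

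In GENCODE release 29, only a small share of the exon bases of CYP51A1 is free of other gene models. In the deposited table, LRRD1, a neighbour on the same strand, spans 99.97% of the length given for CYP51A1, and was itself counted 9 times in all 6 libraries together. In GENCODE release 29, LRRD1 ends before CYP51A1 begins, and a separate read-through model on the same strand, AC000120.2, holds 2844 of the 3584 exon bases of CYP51A1 (79.4%). With an antisense gene and a further model included, 83.2% of its exon bases are shared, and 602 are not. The corresponding share is 4.17% for FDFT1, 0% for SQLE and 7.88% for LSS. These shares describe that release. AC000120.2 and the further model have no row in the deposited table, which also gives CYP51A1 a different span. HTSeq, named in the submitters' processing notes, by default counts a read on no gene when it overlaps several, but the mode used here is not given in the sources used here. The part of this overlap in the low counts was not tested. A pair of pseudogenes of CYP51A1 also appears in the table: CYP51A1P2 on chromosome 13 had 9 counts over the control libraries and 24 over the fluoxetine libraries, and CYP51A1P1 on chromosome 3 had 0 and 6. Whether reads were split between CYP51A1 and these copies was not tested.

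**Figure D2:**
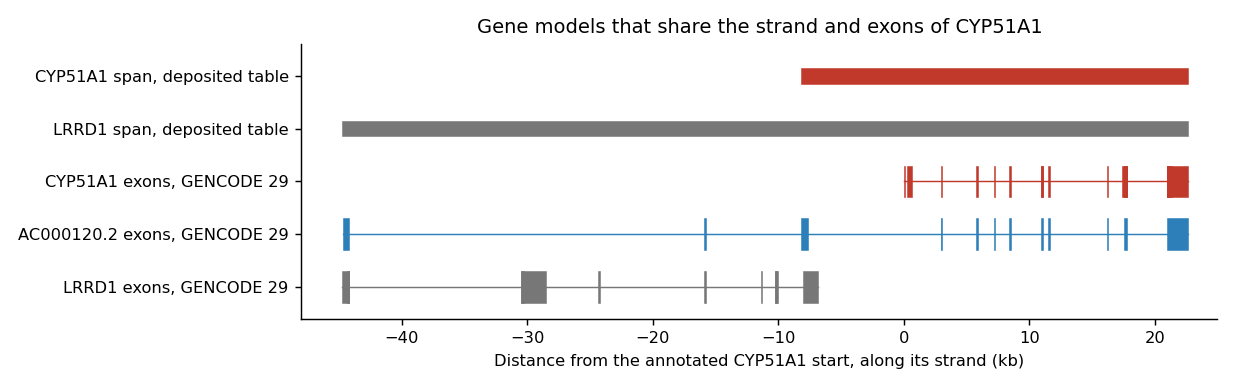
Map of CYP51A1 and the models on its strand, as distance in kb from the annotated CYP51A1 start (x axis, in the direction of transcription). The upper 2 bars are the spans given in the deposited table, and the lower 3 tracks show exons (boxes) in GENCODE release 29. The LRRD1 span covers nearly the whole CYP51A1 span, and the exons of AC000120.2 coincide with most exons of CYP51A1.

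Levels of different genes were compared per length, as CPM per kb of annotated exon. In control cells the order followed the pathway, with 30.3 ± 0.929 for FDFT1, 18.9 ± 0.457 for SQLE (CPM per kb, SD, n = 3) and 7.58 to 8.71 CPM per kb for the 3 libraries of LSS. After treatment the order was the same, with 69.1 ± 3.71, 50.8 ± 1.33 and 28.0 ± 0.517 CPM per kb (SD, n = 3). Neighbours in this order did not overlap in any library of either group. Among all tested genes with a known exon length, FDFT1 moved from percentile 86.0 to 91.9, SQLE from 80.4 to 90.4 and LSS from 64.7 to 85.7. CYP51A1, with the reservation above, stood at percentile 8.40 and 13.5. The 3 well-counted enzymes summed to 57.2 ± 1.17 CPM per kb in control cells and 147.9 ± 3.25 CPM per kb in treated cells (SD, n = 3). Within that sum LSS took 13.2% to 15.3% in control libraries and 18.5% to 19.8% in fluoxetine libraries, and FDFT1 took 52.1% to 53.6% and 45.5% to 48.4%. The share of SQLE was 32.6% to 33.4% in control libraries and 33.1% to 35.2% in fluoxetine libraries, which overlap.

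The balance between the enzymes was then compared within each library, where normalization has no effect. The ratio of SQLE to FDFT1 was 0.620, 0.626 and 0.630 in the control libraries and 0.764, 0.683 and 0.761 in the fluoxetine libraries. The ratio of LSS to FDFT1 was 0.247, 0.294 and 0.254 in control libraries and 0.435, 0.381 and 0.401 in fluoxetine libraries. The ratio of LSS to SQLE was 0.398, 0.470 and 0.403 in control libraries and 0.569, 0.558 and 0.526 in fluoxetine libraries. In each of these 3 ratios every treated library lay above every control library, with differences of 0.23, 0.62 and 0.38 on the log2 scale. Each had a two-sided exact permutation p of 0.1, the smallest that 3 libraries against 3 can give, and 0.12 after Benjamini-Hochberg adjustment over the 6 pairs of enzymes. This test therefore cannot give a p under 0.05 with 3 libraries per group. The ratios of CYP51A1 to SQLE and to LSS were lower in every treated library (exact permutation p = 0.1, adjusted 0.12), while that of CYP51A1 to FDFT1 overlapped between the groups (exact permutation p = 0.4). These last ratios rest on 21 to 36 counts per library.

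**Figure D3:**
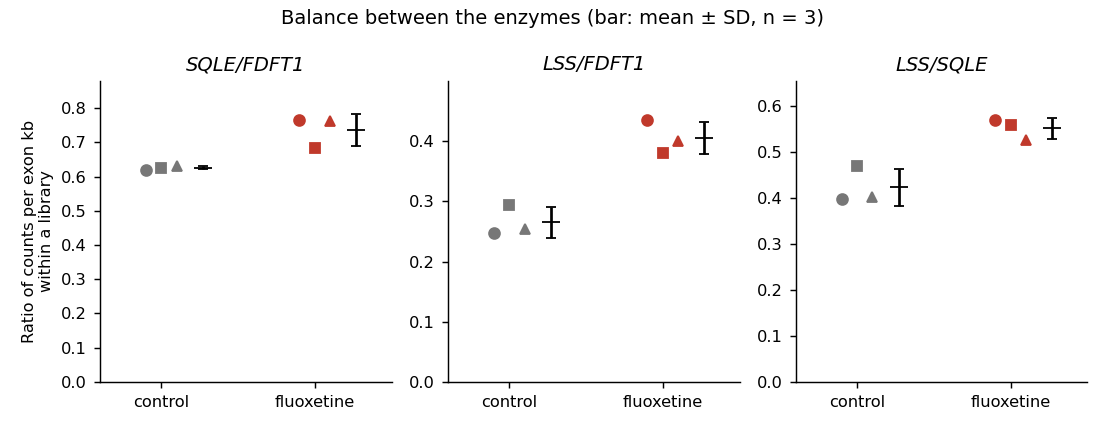
Ratio of 2 enzymes within each library, from counts per exon kb (y axis, from 0, no unit), for control and fluoxetine libraries. Points are libraries, shaped by replicate number as in the plot of levels, and bars give the mean and SD (n = 3). SQLE stands higher against FDFT1, and LSS against both others, in all treated libraries.

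Within a group, the libraries deviated little from their mean for the 3 well-counted enzymes. Control replicate 3 lay below its group mean in all 4 enzymes, by -0.02 for FDFT1, -0.01 for SQLE, -0.08 for LSS and -0.24 for CYP51A1 on the log2 scale. On the log2 scale FDFT1 was highest in fluoxetine replicate 2, by 0.08 above its group mean, whereas SQLE was lowest there, by -0.03. In control replicate 2 LSS lay 0.12 above its group mean, and FDFT1 and SQLE lay -0.03 from theirs. The largest deviation of FDFT1, SQLE or LSS in any library was that of 0.12, while the smallest of their 3 fold changes was 1.19 on the same scale.

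The steps before and after these enzymes were compared by the same test. Over all 15646 tested genes, 1214 (7.76%) were upregulated, 195 (1.25%) by at least 2-fold, and 833 were downregulated. At that rate, lists as short as those below can hold 0 downregulated genes without this being a trait of theirs. Of the 8 mevalonate pathway enzymes, which make farnesyl diphosphate from acetyl-CoA, 7 were upregulated, all by at least 2-fold, 0 were downregulated and 1 did not pass. Their median log2 fold change was 1.56, against 1.31 for the squalene to lanosterol enzymes and 0.03 for all tested genes. HMGCS1, which makes HMG-CoA, rose by 2.65 on the log2 scale. IDI1 rose by 1.67, MVK by 1.45 and ACAT2 by 1.24, and the highest adjusted p of these 4 was 7.70e-05 (edgeR). PMVK, singled out after its value was seen as the member that did not pass, had a log2 fold change of -0.08 (95% interval -0.38 to 0.23, adjusted p = 0.755 from edgeR). FDPS, which supplies the substrate of FDFT1 and was also named after values were seen, rose by 1.06 on the log2 scale (95% interval 0.83 to 1.29). Its interval overlaps that of FDFT1.

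Of the 9 enzymes after lanosterol demethylation, 8 were upregulated, 6 of them by at least 2-fold, and 0 were downregulated, with a median log2 fold change of 1.22. MSMO1, which removes further methyl groups, rose by 2.11 on the log2 scale, HSD17B7 by 1.75, DHCR7, the last enzyme of the Kandutsch-Russell route, by 1.35 and SC5D by 1.22, and the highest adjusted p of these 4 was 1.66e-05 (edgeR). The step directly after CYP51A1, reduction of the C14 double bond, can be made by TM7SF2 or LBR, which were named after their values were seen. TM7SF2 was counted 30, 32 and 41 times without fluoxetine and 80, 119 and 75 times with it, a rise of 1.86 on the log2 scale (edgeR, adjusted p = 8.19e-04). LBR had group means of 205.9 ± 21.5 and 209.2 ± 7.17 CPM (SD, n = 3 each), and its log2 fold change was 0.02 (95% interval -0.16 to 0.21).

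**Figure D4:**
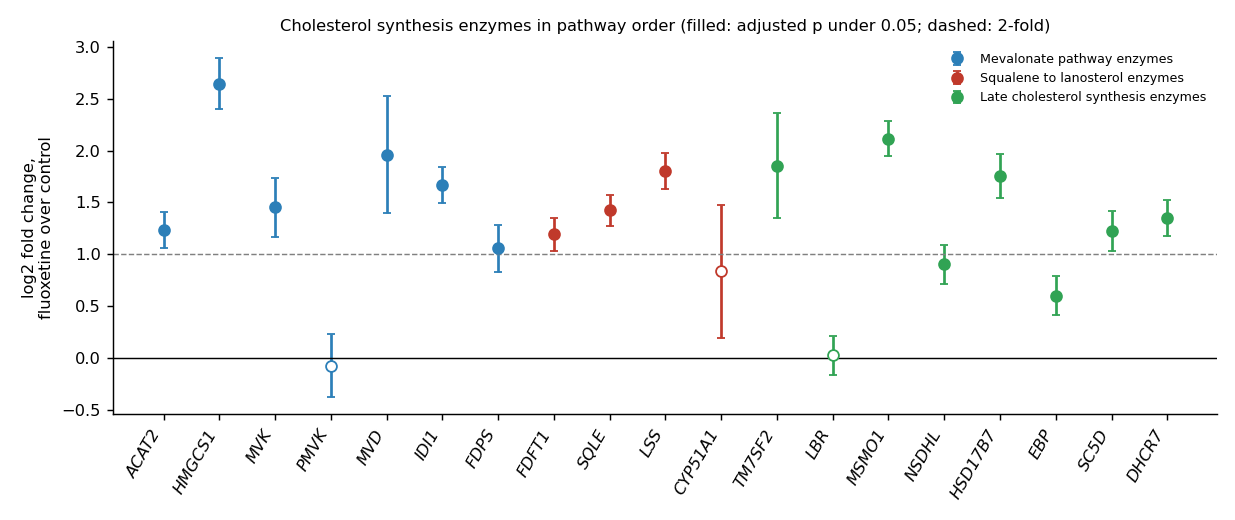
log2 fold change of fluoxetine over control (y axis) for cholesterol synthesis enzymes in pathway order, without those not reported here (x axis), with 95% intervals from the edgeR fit. Filled points had an adjusted p under 0.05 and the dashed line marks a fold change of 2. FDFT1, SQLE and LSS lie above the dashed line with their intervals, and CYP51A1, PMVK and LBR are the open points.

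Farnesyl diphosphate is also drawn on for prenyl groups, dolichol, ubiquinone and heme A. Of 8 enzymes of these branches, 1 was upregulated, 0 were downregulated and 7 did not pass, with a median log2 fold change of -0.04. With 7.76% of all tested genes upregulated, 1 of 8 is near the overall share. The gene that passed was GGPS1, which makes geranylgeranyl diphosphate, at 0.47 on the log2 scale with a 95% interval of 0.31 to 0.63 (edgeR, adjusted p = 0.00288). That interval lies below those of FDFT1, SQLE and LSS. GGPS1 was named after its value was seen.

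Among 7 genes of the SREBP machinery, 2 were upregulated, 0 were downregulated and 5 did not pass, with a median log2 fold change of 0.12. The upregulated share over all tested genes was 7.76%. INSIG1, a sterol-dependent anchor of the SREBP complex in the endoplasmic reticulum and itself an SREBP target, rose by 2.40 on the log2 scale, with group means of 39.0 ± 1.68 and 205.6 ± 11.4 CPM (SD, n = 3 each). SREBF2, which encodes SREBP2, rose by 0.77 on the log2 scale (adjusted p = 3.39e-04 from edgeR). SREBF1 had a log2 fold change of 0.36 (adjusted p = 0.159), INSIG2 of 0.11 (adjusted p = 0.630) and SCAP, the escort of SREBPs, of 0.03 (adjusted p = 0.893), by the same edgeR test. RNA levels do not show whether SREBP2 was processed.

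Some proteins serve enzymes of this pathway as electron donors or scaffolds. Of 7 redox partners and accessory proteins, 1 was upregulated, 0 were downregulated and 6 did not pass, with a median log2 fold change of 0.15. As 7.76% of all tested genes were upregulated, 1 of 7 is near the overall share. ERG28, thought to hold enzymes of the late pathway together and named after its value was seen, rose by 0.88 on the log2 scale (adjusted p = 1.22e-04 from edgeR). POR, the reductase that passes electrons to SQLE and CYP51A1, had a log2 fold change of 0.35 with a 95% interval of 0.09 to 0.62 (edgeR, adjusted p = 0.0753). Of 6 genes of sterol-regulated protein degradation, 0 passed in either direction, and the median log2 fold change was -0.01, by edgeR. MARCHF6, the ubiquitin ligase that marks SQLE for degradation, had a log2 fold change of 0.10 (95% interval -0.08 to 0.28, adjusted p = 0.483 from edgeR). Both POR and MARCHF6 were named after their values were seen.

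**Figure D5:**
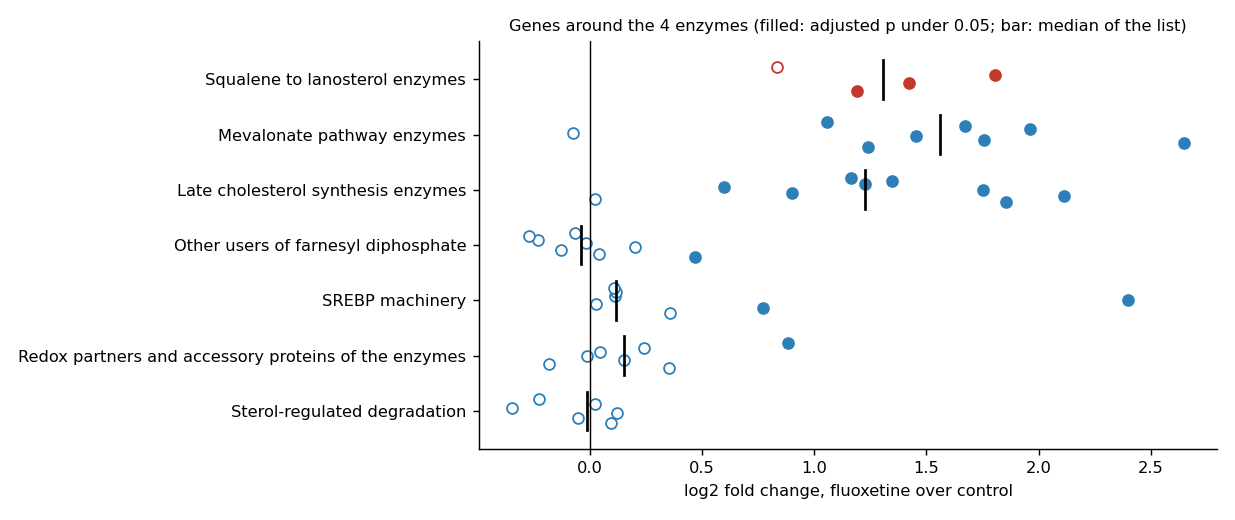
log2 fold change of fluoxetine over control (x axis) for each tested gene of the squalene to lanosterol enzymes and of 6 related lists. Filled points had an adjusted p under 0.05 from edgeR, and the black bars are list medians. The 3 lists of cholesterol synthesis enzymes have medians of 1.22 to 1.56, and the other lists of -0.04 to 0.15.

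The tested genes nearest in pattern to each enzyme were found by the root mean square difference of log2 CPM, centred on the control mean, over the 6 libraries. For FDFT1 they were FLCN, ACAT2 and VAT1, at 0.039 to 0.044 on the log2 scale. For SQLE they were ACSL1, CCNG2 and PPARGC1A, at 0.074 to 0.085. For LSS they were HSD17B7, ACVR1C and SCD, at 0.105 to 0.114, of which HSD17B7 acts later in the same pathway and SCD desaturates fatty acids. For CYP51A1 they were TOLLIP, LGI1 and TOM1, at 0.118 to 0.132. The enzymes were not each other's nearest genes. SQLE lay 0.17 from FDFT1, as its 54th nearest gene, and 0.28 from LSS, as its 34th nearest. LSS lay 0.45 from FDFT1, as its 650th nearest gene. CYP51A1 lay 0.40 to 0.76 from the other enzymes, as their 420th to 492nd nearest gene.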

How the data were processed

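RNA of H460 cells, 3 control and 3 fluoxetine libraries, was sequenced as paired-end reads of 150 bases. The authors deposited the raw count of reads per gene and library, without normalization or pooling. The deposited columns with a log2 fold change and with p-values, raw and adjusted, hold the authors' own comparison and were not used. Of the tools in the submitters' processing notes, fastp 0.20.0, HISAT2 2.1.0, HTSeq 0.10.0 and DESeq2 1.18.1 are named without a role. The genome build is not named, and the coordinates of FDFT1, SQLE and LSS are those of GENCODE release 29 (GRCh38).

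The test was edgeR's quasi-likelihood F test (edgeR 4.0.16 in R 4.3.3, glmQLFit and glmQLFTest, TMM, filterByExpr, no covariate), with Benjamini-Hochberg adjustment over 15646 genes. Thresholds were an adjusted p under 0.05 and, separately, a fold change of at least 2. Standard errors are the log2 fold change over the root of F. Exon lengths are from GENCODE release 29, known for 15611 tested genes. Pair ratios were tested by exact permutation (scipy 1.17.1). The log2 CPM used for patterns had a prior count of 2. Nothing says whether the libraries came from separate cultures, so p-values measure the spread between these libraries. Pairs of replicates differed by more than sampling noise (chi-square per degree of freedom of at least 3.72).

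Members and lists were chosen with earlier results of these data known. Named genes are the 4 enzymes, the SREBF, SCAP and INSIG genes, up to 5 genes per list past both thresholds by smallest p, genes overlapping an enzyme or copied from it, and the 3 genes nearest in pattern. Some genes that this rule names are not reported here, though the counts and medians of their lists include them. The fit was tested on simulated data. Alternatives were DESeq2 1.42.0, limma-voom (limma 3.58.1), RLE factors, library size only, no filter, at least 10 counts in every library, a replicate block, thinning to the shallowest library, and leaving out each library.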

Additional observations from a re-analysis of the deposited data

How the results depend on the processing

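FDFT1, SQLE and LSS kept their direction and stayed past both thresholds in all 14 alternatives, with log2 fold changes of 1.12 to 1.21, 1.37 to 1.45 and 1.73 to 1.83. The number of enzymes upregulated at an adjusted p under 0.05 was 3 or 4, and with a fold change of at least 2 it was 3 throughout. Leaving out single libraries gave CYP51A1 log2 fold changes of 0.67 to 1.03 (edgeR, adjusted p of 0.0957 to 0.289), and the other settings gave 0.80 to 0.86. It passed only with the replicate number as a block, at a log2 fold change of 0.82 and an adjusted p of 0.0366 from edgeR. The cause was not tested. The deviations of same-numbered libraries from their group means correlated by 0.030, 0.116 and 0.392 across genes. Libraries with different numbers correlated by -0.380 to 0.320. These values do not settle whether the numbers pair the samples. Control replicate 1 and fluoxetine replicate 2 correlated best with each other (0.320) and not with their own number. All 6 pair ratios kept their direction when any single library was left out. The difference in CYP51A1 to FDFT1 then lay between -0.49 and -0.12 on the log2 scale. Averaged over same-numbered pairs, each difference equals that of the group means, so this setting could not reverse it. Within replicate 1 the ratio of CYP51A1 to FDFT1 was higher with fluoxetine (0.00929) than without (0.00849), and it was lower in the other pairs. CYP51A1 rests on 21 to 36 counts per library.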
